A study of Mus musculus with 6 samples.

Results

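The plasminogen activators, serpins and coagulation factors described here are 8 genes of the plasminogen and coagulation systems, taken from the deposited table of protein-coding genes by symbol: Plau, Plaur, Plat, Serpine2, F3, Tfpi, Thbd and Vwf. All 8 were found among 22482 genes, and all 8 passed the filter on low values, a minimum of 0.5 FPKM in 3 or more of the 6 libraries. Vwf met it only through the libraries labelled knockdown, the group where it is high, so its call is given as a description of a gene selected that way. FPKM is the number of sequenced fragments scaled by transcript length and by library size. The libraries came from cultured aortic vascular smooth muscle cells (VSMCs) of C57BL/6 mice, grown in medium with 10% fetal bovine serum. Cells of the first group, labelled Myocd knockdown, had by the submitters' description been given an adenovirus against Myocd 48 h before. Cells of the second group, labelled control, carried a negative control adenovirus, although the series' design text calls them wildtype, so whether they received virus is not certain. Each group has 3 libraries of total RNA depleted of ribosomal RNA. The labels do not say if separate cultures or animals were used, and p-values therefore speak only of spread among these libraries, possibly technical spread.

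Levels of Myocd, the gene of myocardin, a coactivator of serum response factor, were opposite to the labels: 131.7, 130.1 and 145.5 FPKM for the 3 libraries labelled knockdown, against 0.0355, 0 and 0.125 FPKM for the 3 labelled control. The groups keep the names of their labels here, and why the levels oppose the labels was not tested. A rise means a higher level in the libraries labelled knockdown, which are the ones with abundant Myocd RNA. Each library held between 7528156 and 9793789 fragments on protein-coding genes. Of 9 smooth muscle markers 7 were tested and 4 rose (Acta2, Lmod1, Actg2 and Myocd itself), while Tagln, Smtn and Mylk did not pass. Over all tested genes 1.83% were called higher. Lmod1, Actg2, Myocd and Tagln reached 0.5 FPKM in 3 libraries only because of those labelled knockdown. Their results are therefore descriptions of genes selected that way, as for Vwf. Acta2 stood at 340.2 ± 7.16 against 67.2 ± 4.16 FPKM (SD, n = 3 each). Tagln stood at 7.52 ± 1.77 against 0.637 ± 0.887 FPKM, higher in each library labelled knockdown. It just missed the threshold in limma (adjusted p = 0.0555) and passed it in edgeR (adjusted p = 0.00255). Smtn stood at 56.5 ± 3.94 against 57.6 ± 6.72 FPKM, and Mylk at 7.74 ± 0.469 against 7.31 ± 0.399 FPKM. The untested Myh11 stood at 0.0604 ± 0.0287 against 0.0132 ± 0.0130 FPKM.

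Plasminogen is a circulating zymogen that urokinase (Plau) and tissue plasminogen activator (Plat) cleave to plasmin, which dissolves fibrin and attacks the vessel wall's matrix. The urokinase receptor (Plaur) holds urokinase at the cell surface, and serpins, suicide inhibitors of serine proteases, switch the activators off. Coagulation starts when tissue factor (F3), which smooth muscle and adventitial cells of the wall carry, meets factor VII in blood. Tissue factor pathway inhibitor (Tfpi) blocks that step, thrombomodulin (Thbd) turns thrombin towards activation of protein C, and von Willebrand factor (Vwf) tethers platelets and carries factor VIII.

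Upstream sequence was at hand for the initiator and its inhibitor, F3 and Tfpi, whose levels are set against each other below. RefSeq windows (GRCm38.p6) matched 4 of the 8 genes, F3, Tfpi, Plaur and Serpine2, with 5 windows because 2 are of Tfpi. The RefSeq genes of Tfpi and Plaur begin upstream of the starts used here, so other starts are not covered. Each sequence is the 250 bases before a transcription start, 5′ to 3′ on the gene's strand. Capitals mark matches, on either strand, to the AP-1 motif TGANTCA, to the GC box, spelled GGGCGG, and to the TATA motif, spelled TATAAA. F3 is at chr3:121723287-121723536 on the plus strand, and the Tfpi windows are at chr2:84476760-84477009 and chr2:84474175-84474424 on the minus strand.
F3: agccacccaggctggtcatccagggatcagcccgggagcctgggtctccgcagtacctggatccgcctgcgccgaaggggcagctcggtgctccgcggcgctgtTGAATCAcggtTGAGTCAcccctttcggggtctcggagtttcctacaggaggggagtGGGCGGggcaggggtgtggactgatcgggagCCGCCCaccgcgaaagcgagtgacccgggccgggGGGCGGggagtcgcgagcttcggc
Tfpi, upstream start: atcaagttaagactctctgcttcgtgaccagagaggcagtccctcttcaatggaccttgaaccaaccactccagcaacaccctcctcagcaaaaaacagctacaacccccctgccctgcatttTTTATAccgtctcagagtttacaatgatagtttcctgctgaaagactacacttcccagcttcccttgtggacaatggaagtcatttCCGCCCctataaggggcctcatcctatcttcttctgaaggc
Tfpi, second start: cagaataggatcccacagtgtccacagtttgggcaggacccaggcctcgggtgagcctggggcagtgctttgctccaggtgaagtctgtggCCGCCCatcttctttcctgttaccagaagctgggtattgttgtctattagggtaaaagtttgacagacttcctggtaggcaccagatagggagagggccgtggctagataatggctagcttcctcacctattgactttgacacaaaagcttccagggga

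The F3 window holds 2 AP-1 matches, whose first bases lie 146 and 135 bases before the start, and 3 GC boxes at 89, 58 and 24 bases. The upstream Tfpi window holds the only TATA match of the 5 windows, at 127 bases. Both Tfpi windows lack an AP-1 match and hold 1 GC box each, 41 bases before the upstream start and 159 bases before the second. The Plaur window holds 1 AP-1 match at 69 bases and 3 GC boxes, and the Serpine2 window holds 6 GC boxes. Over all 32851 windows of this length, 6.75% hold an AP-1 match, 32.7% a GC box and 12.4% a TATA match. The CArG box, the motif that serum response factor binds, was searched on both strands and is in 0 of the 5 windows, against 1.47% of all windows. The TEAD motif GGAATG, on either strand, is likewise in 0 of the 5, against 12.6% of all. No matches of different motifs overlapped in these windows, and a match is a string of letters, not a shown binding site.

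Of the 8 genes, Plau and Vwf passed the test with higher levels in the libraries labelled knockdown, 0 passed with lower levels, and the other 6 did not pass. The count is no support for a shift of the 8 together, since Vwf could enter the test only by being high in 1 group. A call is an adjusted p under 0.05 in limma on log2(FPKM + 0.1), adjusted by Benjamini and Hochberg over all 11612 genes tested. Across those genes 3.44% were called (1.83% higher, 1.61% lower). The groups did not overlap in FPKM for 3 of the 8, Plau, F3 and Vwf, all higher; among all tested genes 28.9% had groups that did not overlap, 13.3% higher and 15.6% lower. The median log2 fold change was 0.19 over the 8 and -0.01 over all tested genes. The values nearest that median were 0.05 (Plat) and 0.33 (Plau). Vwf enters both the median and the 3 of 8, so neither is support for a shift of the 8 together. EdgeR on the recovered fragments called 1 of the 8, Plau, against 9.95% of all genes it tested (5.45% higher, 4.5% lower). DESeq2 called Plau too, against 9.46% of all (5.23% higher, 4.22% lower). Leaving out any library other than control 3 ended both limma calls, and without control 3 that of Plau ended. The log2 fold changes stayed at 0.30 to 0.35 for Plau and 2.06 to 2.56 for Vwf in these runs, in which the calls over all genes, 400 with every library, numbered 44 to 178.

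**Figure D1:**
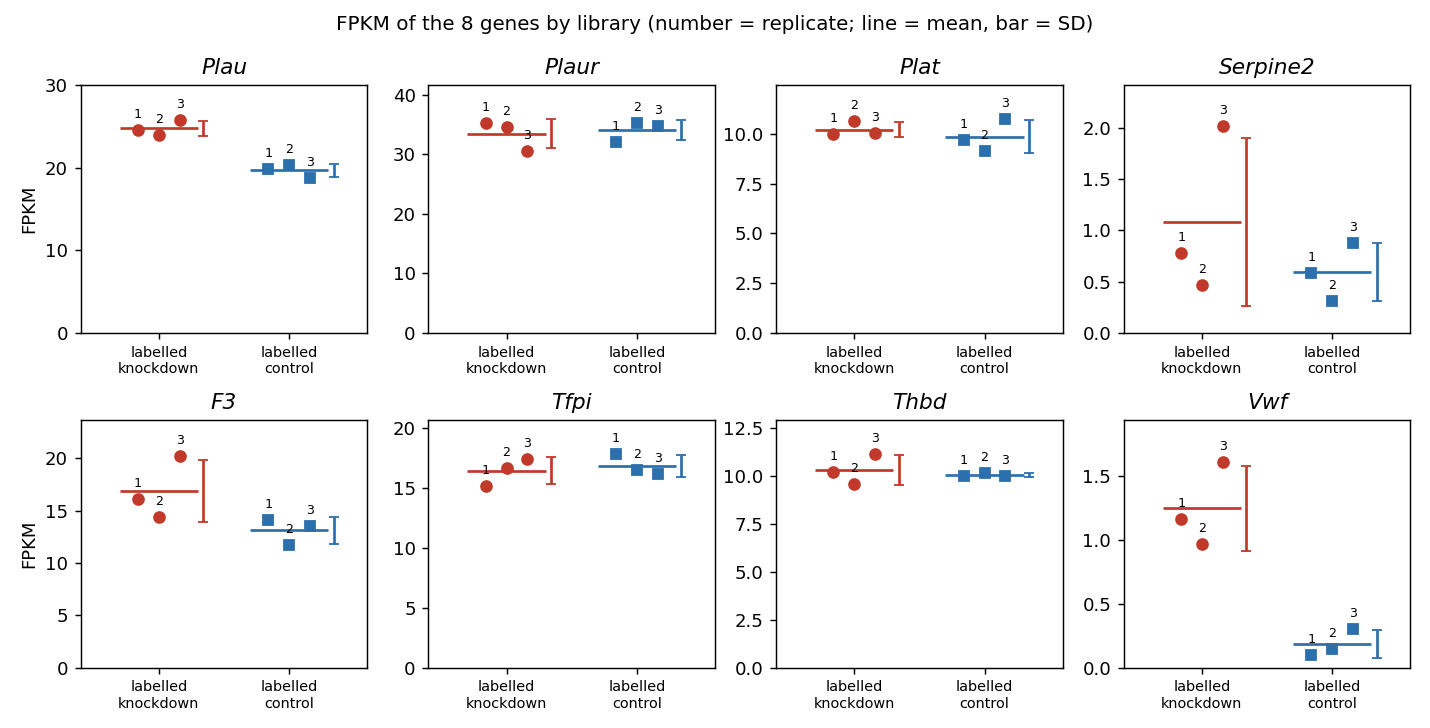
FPKM (y axis, from 0, its own scale in each panel) of the 8 genes in each library, with the libraries labelled knockdown (red circles) left of those labelled control (blue squares). Numbers are replicates, lines are means and bars are SD (n = 3). The groups are apart for Plau, F3 and Vwf, and in Serpine2 and Vwf replicate 3 is the highest library of both groups in FPKM.

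By mean level over all 6 libraries, Plaur stood highest (33.7 FPKM), followed by Plau (22.2), Tfpi (16.7), F3 (15.02), Thbd (10.2), Plat (10.0), Serpine2 (0.838) and Vwf (0.714). FPKM is scaled by length, which lets levels of different genes be set side by side, but for Vwf the FPKM given per count differed between the groups (below), so its place in this order is uncertain. Within the libraries labelled knockdown the order turned for 2 pairs: F3 averaged 16.9 and Tfpi 16.5 FPKM, and Vwf 1.24 and Serpine2 1.08 FPKM. Plaur lay above Plau, and Plau above Tfpi, in every library. F3 and Tfpi overlapped in the libraries labelled knockdown, and so did Thbd with Plat in both groups and Serpine2 with Vwf in the libraries labelled knockdown. Serpine2 and Vwf rest on 6 to 37 fragments per library, against 214 to 576 for the other 6 genes. The table's loci equal the RefSeq genes at both ends for 4 of the 8, and none holds another RefSeq gene.

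Among the activators, Plau, the urokinase gene, rose. It lies on the plus strand of chromosome 14 from 20836662 to 20843388 (mm10). Its FPKM was 24.6, 23.9 and 25.8 in the libraries labelled knockdown and 19.9, 20.4 and 18.8 in those labelled control. Every library labelled knockdown was above every library labelled control, by a margin wider than the spread within either group. Plau averaged 24.8 ± 0.933 FPKM against 19.7 ± 0.805 FPKM (SD, n = 3 each), a fold of 1.26, with a log2 fold change of 0.33 (SE 0.06, 95% interval 0.19 to 0.47, limma adjusted p = 0.0376). On 1631 and 1452 recovered fragments edgeR gave a log2 fold change of 0.34 (adjusted p = 0.00595) and DESeq2 0.34 (adjusted p = 0.00736). The call ended when any 1 library was left out (limma adjusted p from 0.0822 to 0.111), and in limma without the trend (adjusted p = 0.0725), while the log2 fold change stayed between 0.27 and 0.35 in the 19 alternatives.

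Plat, the tissue-type activator, did not pass. This gene lies on the plus strand of chromosome 8 from 22757744 to 22782847. Its FPKM was 9.96, 10.6 and 10.0 in the libraries labelled knockdown against 9.69, 9.15 and 10.7 in those labelled control. The groups overlapped, and the log2 fold change was 0.05 (95% interval -0.15 to 0.26, limma adjusted p = 0.756). The interval includes no difference and reaches changes about as large as the lower part of that of Plau; a difference between Plau and Plat was measured as a ratio within each library.

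The log2 ratio of Plau to Plat was 1.30, 1.16 and 1.35 in the libraries labelled knockdown and 1.03, 1.147 and 0.80 in those labelled control. The lowest value labelled knockdown lay just above the highest labelled control. The difference was 0.28, with an exact two-sided permutation p of 0.1, the smallest that 3 against 3 libraries allow, and 0.2 adjusted over the 4 ratios computed. The ratio of Plau to Serpine2 overlapped between the groups (4.62 ± 0.916 against 4.93 ± 0.682 on the log2 scale, exact p = 0.6), as did that of Plat to Serpine2 (3.35 ± 1.005 against 3.93 ± 0.515, exact p = 0.5).

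The receptor gene Plaur, which lies on the plus strand of chromosome 7 from 24462500 to 24475873, did not pass either. Its FPKM was 35.2, 34.6 and 30.6 in the libraries labelled knockdown against 32.1, 35.3 and 34.8 in those labelled control. The lowest library of all was knockdown 3, and the groups overlapped. The log2 fold change was -0.03 (95% interval -0.20 to 0.14, limma adjusted p = 0.850). It was 0.04 without knockdown 3 (limma adjusted p = 0.780). A rise of Plaur as large as the estimate for Plau, 0.33, lay outside its interval.

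Serpine2 encodes protease nexin 1, a serpin that inhibits thrombin, urokinase and tissue plasminogen activator. It is a minus-strand gene of chromosome 1, from 79794197 to 79858696. The FPKM values were 0.775, 0.464 and 2.01 in the libraries labelled knockdown, and 0.588, 0.311 and 0.874 in those labelled control. Replicate 3 was the highest library of each group, as it was for 15.9% of all tested genes, and the groups overlapped. Recovered fragments were 17, 10 and 37 against 14, 7 and 20. The log2 fold change of 0.64 had a wide interval, from -0.67 to 1.94 (limma adjusted p = 0.536), and was 0.11 without knockdown 3 and 1.06 without knockdown 2.

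The initiator of coagulation, F3, was higher in each library labelled knockdown but did not pass. It lies on the plus strand of chromosome 3 from 121723537 to 121735052. Its FPKM was 16.1, 14.4 and 20.2 in the libraries labelled knockdown against 14.1, 11.7 and 13.6 in those labelled control. The groups were separate by a small margin, between 14.4 in knockdown 2 and 14.1 in control 1, and knockdown 3 stood above the rest. The means were 16.9 ± 2.96 and 13.1 ± 1.27 FPKM, with a log2 fold change of 0.35 (SE 0.13, 95% interval 0.04 to 0.67, unadjusted p = 0.0335, limma adjusted p = 0.184). EdgeR gave 0.37 (adjusted p = 0.0849), and without knockdown 3 the limma value fell to 0.22 (adjusted p = 0.306).

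Tfpi, the inhibitor of the tissue factor complex, did not pass. Its minus-strand locus on chromosome 2 runs from 84432855 to 84476775. The libraries labelled knockdown held 15.2, 16.7 and 17.5 FPKM, against 17.9, 16.5 and 16.2 FPKM in those labelled control, so the groups overlapped. The log2 fold change was -0.04 (95% interval -0.22 to 0.15, limma adjusted p = 0.821), and its sign was positive in edgeR and DESeq2 (0.02 in each). The log2 ratio of F3 to Tfpi was 0.08, -0.21 and 0.21 in the libraries labelled knockdown and -0.34, -0.49 and -0.25 in those labelled control. These ratios were separate, by a margin of less than the spread within either group, and differed by 0.39 (exact two-sided permutation p = 0.1, the smallest possible; 0.2 adjusted over the 4 ratios).

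Thbd, the thrombin-binding cofactor for protein C activation, did not pass. It is a minus-strand gene of chromosome 2, from 148404471 to 148408188. Its level was 10.2, 9.57 and 11.1 FPKM in the libraries labelled knockdown against 9.98, 10.2 and 10.0 in those labelled control. The knockdown libraries lay on both sides of the narrow control range. The log2 fold change was 0.03 (95% interval -0.16 to 0.23, limma adjusted p = 0.840).

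Vwf had the largest fold change of the 8, from a low level. The table places it on the plus strand of chromosome 6 from 125546774 to 125686679, while the RefSeq gene starts at 125552948. Its FPKM was 1.16, 0.963 and 1.61 in the libraries labelled knockdown and 0.102, 0.146 and 0.306 in those labelled control. All 3 libraries labelled knockdown were at least 0.963, above the highest labelled control. The means were 1.24 ± 0.330 against 0.185 ± 0.107 FPKM (SD, n = 3 each), with a log2 fold change of 2.28 on the log2(FPKM + 0.1) scale (SE 0.41, 95% interval 1.33 to 3.23, limma adjusted p = 0.0346). With a pseudocount of 1 FPKM the log2 fold change was 0.92.

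The fragment numbers of Vwf differed less than its FPKM. Recovered fragments were 22, 15 and 15 in the libraries labelled knockdown and 7, 6 and 13 in those labelled control. In sum, 52 fragments (exact Poisson 95% interval 38.8 to 68.2) stood against 26 (17 to 38.1), and such intervals cover counting error only. EdgeR gave a log2 fold change of 1.16 and did not call the gene (adjusted p = 0.0869). An edgeR run without both replicate 3 libraries, chosen after seeing the data, gave 1.59 and called it (adjusted p = 0.0384). That run called 1498 genes over the table, against 1150 in edgeR with every library. DESeq2 gave Vwf no adjusted p. The deposited counts, which the authors had scaled for depth, averaged 18.3 ± 3.33 against 8.24 ± 3.72, a fold of 2.22, whereas the FPKM means differed 6.74-fold.

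FPKM per deposited count was 0.0532, 0.0636 and 0.0895 in the libraries labelled knockdown and 0.0159, 0.0252 and 0.0244 in those labelled control. Each count of Vwf was thus worth 3.15 times as much FPKM in the libraries labelled knockdown. Only 11 of 11611 tested genes, 0.0947%, had a shift at least as large in either direction. Among the other 7 genes Tfpi had the largest shift, 0.969-fold. How the fragments of Vwf were spread over its transcripts is not recorded in the gene-level table, and its part in the FPKM difference was not tested.

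**Figure D2:**
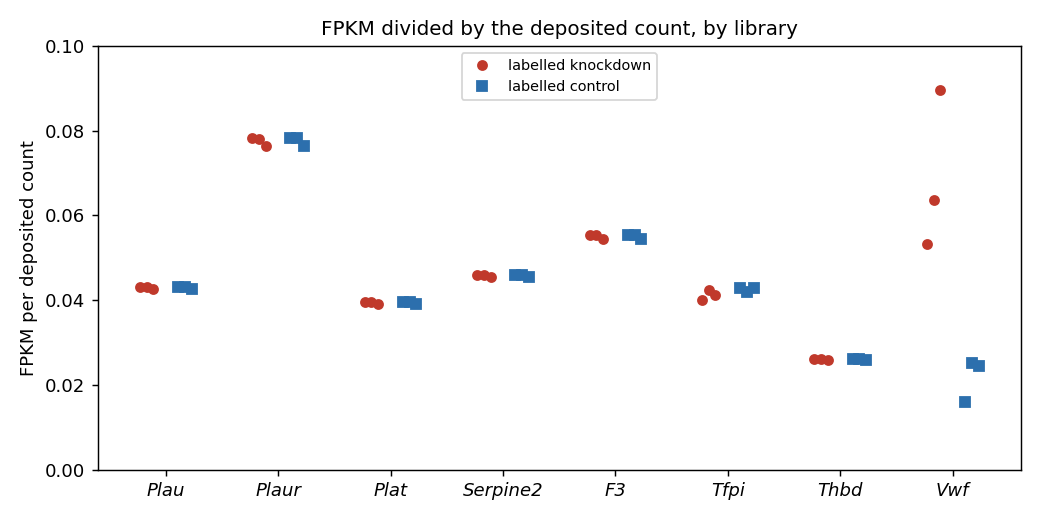
FPKM divided by the deposited count (y axis, FPKM per count) for each of the 8 genes in each library, with the libraries labelled knockdown (red circles) left of those labelled control (blue squares). Vwf alone among the 8 has separate groups far apart, at 0.0532 to 0.0895 against 0.0159 to 0.0252.

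**Figure D3:**
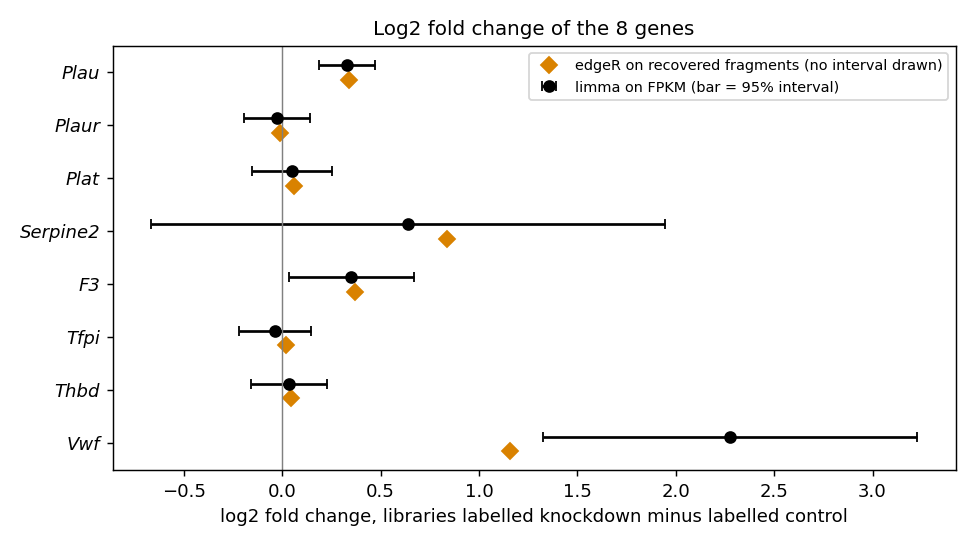
Log2 fold change (x axis, libraries labelled knockdown minus labelled control) of the 8 genes in limma on FPKM (black circles with 95% intervals) and in edgeR on recovered fragments (orange diamonds). Estimates of the 2 methods lie close together for 6 genes; for Vwf they are 2.28 and 1.16, and for Serpine2 0.64 and 0.84.

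Vwf and Thbd are best known from endothelium, and Vwf also from megakaryocytes, so markers of those cells were measured. Of 14 endothelial markers only Flt1 was high enough to test, and it did not pass. The summed endothelial level was 7.27 to 9.49 FPKM in the libraries labelled knockdown and 8.61 to 9.31 in those labelled control, mostly Flt1. Emcn was at 0 in all libraries, and Pecam1 stood at 0.262 ± 0.143 against 0.307 ± 0.131 FPKM. Of 7 megakaryocyte and platelet markers Gp1ba and Gp9 were at 0, and the summed level was 15.3 to 17.8 against 9.43 to 12 FPKM, mostly Ppbp. Ppbp, a platelet chemokine gene, rose (12.2 ± 0.870 against 7.54 ± 0.822 FPKM, limma adjusted p = 0.0235). Of the other detected markers of that list, Itga2b overlapped between the groups (3.51 ± 0.944 against 2.16 ± 1.56 FPKM, on 78 against 91 fragments, limma adjusted p = 0.339). Pf4 (0.256 against 0.400 FPKM), Gp1bb (0.242 against 0.570) and Treml1 (0.0601 against 0.112) were too low to test, with lower means in the libraries labelled knockdown and overlapping groups. The part of these markers in the Vwf result was not tested. In bulk RNA, a change in the number of cells of a type and a change in RNA per cell cannot be told apart. Macrophage markers summed to 20.6 to 24.7 against 22.4 to 26.7 FPKM, mostly Cd14. Fibroblast markers summed to 22.8 to 27.1 against 21.6 to 22.6 FPKM, mostly Pdgfra, and these sums did not overlap. None of these markers was called. Pdgfra was level (16.1 against 16.2 FPKM). Dcn was higher in each library labelled knockdown (5.61 against 3.29 FPKM, limma adjusted p = 0.126). Cd14 was lower in each (17.2 against 20.8 FPKM, limma adjusted p = 0.132). The other tested macrophage markers had overlapping groups. Cd68 had a higher mean in the libraries labelled knockdown (4.37 against 3.15 FPKM, limma adjusted p = 0.363), and Lyz2 was level in the means (0.604 against 0.602 FPKM). Among all tested genes 28.9% had groups that did not overlap.

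The 2 genes that rose had different near neighbours in pattern. Likeness was the root mean square distance between centred log2(FPKM + 0.1) profiles over the 6 libraries, over tested genes averaging 1 FPKM or more. Nearest to Plau were Zfp281, a zinc finger transcription factor (distance 0.017), and Prdx5, a peroxiredoxin (0.018). Nearest to Vwf were Myl9, a regulatory myosin light chain (0.191), and Acta2, smooth muscle alpha-actin (0.316). The group difference enters this distance, so these neighbours are no result apart from the FPKM fold changes. Those were 2.28 for Vwf, 2.52 for Myl9 and 2.34 for Acta2 on the log2 scale. On recovered fragments edgeR gave 1.16 for Vwf and 2.35 for Acta2. Myl9 had 7.05, 6.55 and 9.81 FPKM in the libraries labelled knockdown, against 0.744, 1.35 and 1.95 in those labelled control. In FPKM replicate 3 was its highest library in both groups, as for Vwf. By recovered fragments, knockdown 1 was the highest of its group for Vwf (22, against 15 and 15).

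A wider list of 53 other genes of plasminogen activation, coagulation and its inhibitors was read in the same fit. In these libraries 15 of them were at 0 throughout, among them the fibrinogen chains Fga and Fgg and the clotting factors F9 and F10, whose main source is the liver. Of the 22 listed genes that were tested, 1 fell, 0 rose and 21 did not pass in limma, against 3.44% called over all tested genes. At an unadjusted p under 0.05 there were 4 of the 22, against 22.4% of all tested genes. EdgeR called 2 of the 23 listed genes it tested, Pros1 and Pdia3, both higher, against 9.95% of all genes it tested (5.45% higher). The groups did not overlap for 5 that were higher and 4 that were lower, against 13.3% and 15.6% of all tested genes. The list's median log2 fold change was 0.02, beside -0.01 over all genes tested.

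Eno1, alpha-enolase, a glycolytic enzyme that also binds plasminogen at cell surfaces, was the listed gene that fell. It had 987.9, 977.0 and 973.7 FPKM in the libraries labelled knockdown, against 1110 to 1157 in those labelled control. Its log2 fold change was -0.21 in limma (adjusted p = 0.0235) and -0.10 in both edgeR (adjusted p = 0.0521) and DESeq2 (adjusted p = 0.0196). Leaving out any 1 library ended the call (limma adjusted p from 0.0535 to 0.0931). Near-identical enolase copies exist in the mouse genome, so its counts are uncertain.

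The other 5 of the list's highest 6 did not pass. Annexin A2 (Anxa2) stood at 486.0 ± 2.40 against 500.9 ± 8.95 FPKM (limma adjusted p = 0.468). Its partner S100a10 stood at 697.4 ± 25.4 against 691.7 ± 24.9 FPKM (limma adjusted p = 0.898). Lrp1, the endocytic receptor that clears activator and inhibitor complexes, stood at 280.2 ± 22.4 against 306.4 ± 22.4 FPKM (limma adjusted p = 0.349). Pdia3, a disulfide isomerase, stood at 309.9 ± 7.09 against 276.1 ± 5.24 FPKM and just missed the threshold (limma adjusted p = 0.0555; edgeR adjusted p = 0.00234). Serpinf1, a serpin without known protease inhibition, stood at 284.1 ± 39.0 against 295.6 ± 25.6 FPKM (limma adjusted p = 0.755).

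**Figure D4:**
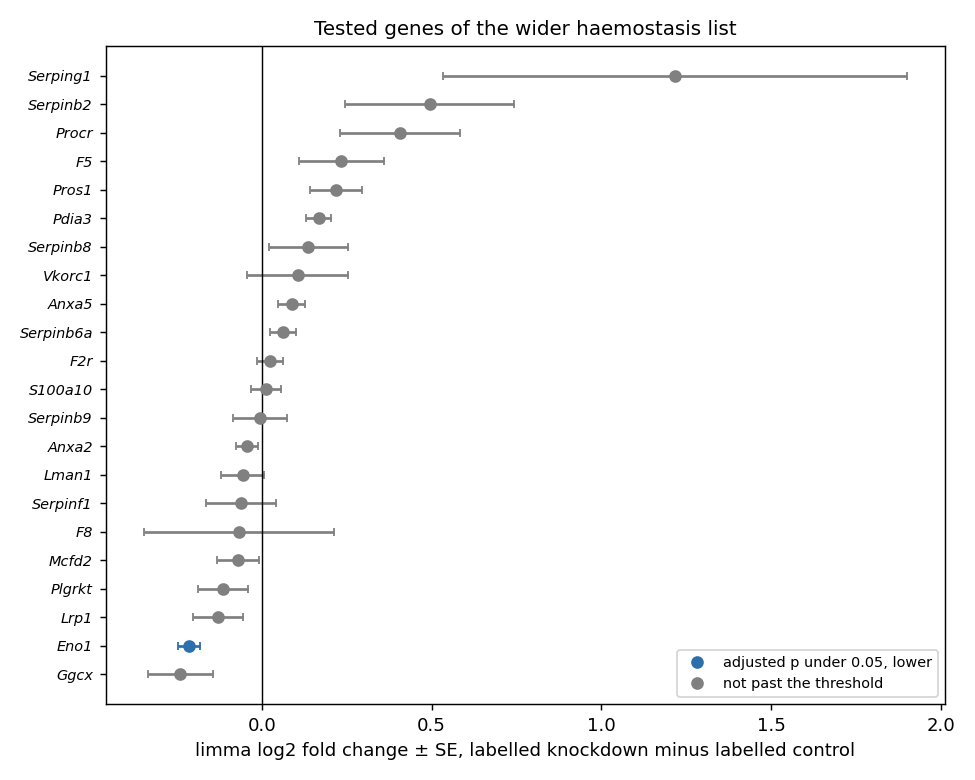
Limma log2 fold change with SE (x axis, libraries labelled knockdown minus labelled control) of the 22 tested genes of the wider list, ordered by value. Eno1 (blue, -0.21) passed the threshold, and the largest estimate, that of Serping1 (1.22, SE 0.68), did not. Serping1 rests on few recovered fragments (14, 13 and 35 labelled knockdown, 7, 6 and 27 labelled control), with replicate 3 highest in both groups.

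The next 3 genes, of the anticoagulant and thrombin arms, were chosen after their values were seen. The protein C receptor gene Procr, which works beside Thbd, stood at 4.17 ± 0.350 against 3.15 ± 0.644 FPKM (limma adjusted p = 0.228). Protein S (Pros1) stood at 15.4 ± 1.12 against 13.2 ± 0.485 FPKM (limma adjusted p = 0.157) and was called by edgeR (adjusted p = 0.0409). The thrombin receptor gene F2r was at 86.5 ± 0.917 against 85.0 ± 1.39 FPKM (limma adjusted p = 0.741).

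The deposited table of long noncoding RNAs pairs 5 transcripts with these genes, 3 with F3, 1 with Plaur and 1 with Vwf. Of these 2 were at 0 in all libraries, the natural antisense transcripts of Vwf (AK089296) and F3 (uc029uol.1), and 3 were tested. Limma called 0 of the 3, with 0 at an unadjusted p under 0.05, against 4.26% of 4955 transcripts called in that table (2.22% higher, 2.04% lower). The transcript head to head with F3 (AK080587) had 0.114, 0.116 and 0.272 FPKM in the libraries labelled knockdown, against 0.106, 0 and 0.109 in those labelled control. These groups did not overlap, by the small margin of 0.114 against 0.109 FPKM, near the filter of 0.1 FPKM. The share of such transcripts over that table was not computed, and the transcript did not pass (log2 fold change 0.67, limma adjusted p = 0.524). The transcript sharing exons with F3 (uc008ref.2) was at 0.669, 0.654 and 0.914 against 1.55, 2.81 and 0.000298 FPKM, a spread among the control libraries that spans the others. Estimated counts share fragments between overlapping transcripts, so the levels of exon-sharing transcripts are uncertain. The exon-sharing transcript of Plaur (uc012ffk.1) was at 8.68, 10.1 and 13.4 against 11.3, 8.42 and 12.3 FPKM (log2 fold change 0.00, adjusted p = 0.996).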

How the data were processed

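The tools named in the submitters' processing notes are Cuffdiff 2.2.1, Cufflinks, HISAT2 2.0.4 and cutadapt; mm10 and mm9 appear there with no role. Use of strand and the annotation: not given in the sources used here. For each gene the authors deposited FPKM values, which they had normalized, beside estimated counts. The deposited count columns are estimated counts multiplied by 1 constant per library (0.916 to 1.20). Divided by it, 88.6% to 90.4% of the values above 0 lay within 0.01 of a whole number, and these are the recovered fragments. Rows of 79 repeated symbols were summed. Table starts have 1 added.

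FPKM values are not counts, so the main test was limma 3.58.1 (R 4.3.3) with an intensity trend on log2(FPKM + 0.1), two-sided, with no covariate beside group. Genes needed 0.5 FPKM, and noncoding transcripts 0.1 FPKM, in 3 libraries. P-values were adjusted by Benjamini and Hochberg over each table at a threshold of 0.05. EdgeR 4.0.16 (quasi-likelihood, TMM) and DESeq2 1.42.0 were run on rounded fragments. Scripts were tested on simulated data. Alternatives were other pseudocounts, filters and scalings, no trend, robust estimation, the replicate block and libraries left out.

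The genes, lists and alternatives were chosen with earlier results of these data known. Some listed genes are not reported here and were left out of the lists and their counts. Genes named beyond the 8 were Myocd, called genes of the wider list and its 6 highest, the 2 genes nearest in pattern to each called gene, and cell type markers; any other is so described in the text.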

Additional observations from a re-analysis of the deposited data

How the results depend on the processing

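Of the 8 genes 2 were called. The count was 1 with a filter of 1 FPKM (Plau; Vwf and Serpine2 were then not tested), without the trend (Vwf), in edgeR (Plau) and in DESeq2 (Plau; Vwf has no adjusted p there). It was 0 with both replicate 3 libraries left out (2 at an unadjusted p under 0.05) and 0 to 1 with single libraries left out. EdgeR without both replicate 3 libraries, chosen after seeing the data, called 2. Over all genes, the 400 calls became 144 without the trend, 1150 in edgeR, 719 in DESeq2, 76 without both replicate 3 libraries, 1498 in edgeR without them and 44 to 178 with single libraries left out. The wider list's 1 call became 0 without a filter (7 at an unadjusted p under 0.05), without the trend (5), without both replicate 3 libraries (6) and with any single library left out (2 to 5), and 2 with median centring, in edgeR, in DESeq2 and in edgeR without both replicate 3 libraries. Runs with fewer libraries have fewer residual degrees of freedom; for the other shifts the cause was not tested.

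Signs turned for 3 genes near 0, none of them called. With single libraries left out the log2 fold change of Plaur ran from -0.070 to 0.035 (positive without knockdown 3), and it was 0.051 without both replicate 3 libraries and 0.063 in edgeR without them. That of Tfpi was 0.019 in edgeR, 0.018 in DESeq2 and -0.078 to 0.020 with single libraries left out (positive without knockdown 1 or control 1). That of Thbd ran from -0.024 (without knockdown 3) to 0.085, and was -0.027 without both replicate 3 libraries and -0.015 in edgeR without them. Plat, Serpine2 and F3 kept their sign and stayed uncalled in all alternatives that tested them. Vwf was at a limma adjusted p of 0.0757 without both replicate 3 libraries, and between 0.0452 and 0.112 with single libraries left out.

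Whether the replicate numbers pair the libraries was not settled. Same-numbered libraries had deviations correlated at 0.037, -0.004 and 0.1 over 11612 genes, and differently numbered ones at -0.088 to 0.059. The largest value was that between the replicate 3 libraries. For 15.9% of all tested genes replicate 3 was the highest library of both groups. With the replicate number as a block limma called 0 of the 8 (3 at an unadjusted p under 0.05; adjusted p = 0.0758 for Plau and 0.0537 for Vwf) and 243 genes over the table. The wider list kept its 1 call, and the noncoding count stayed at 0 in its 9 alternatives.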
